A study of Mus musculus with 20 samples.

Results

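The genes described here are 35 mouse genes of the unfolded protein response, the program by which a cell answers misfolded protein in the endoplasmic reticulum (ER), and of folding, import and degradation in the ER. Members were chosen by name: every probe set that the array annotation assigns to exactly 1 of these 35 symbols was taken, which gave 86 probe sets, out of 17944 genes and 34294 probe sets that name a single gene in the series. The members were ordered by role into 5 sensors and transcription factors, 5 targets of the PERK and ATF4 branch, 9 ER chaperones, 4 protein disulfide isomerases, 2 lectin chaperones, 7 genes of ER-associated degradation and 3 genes of the translocon, the channel through which new proteins enter the ER.

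Misfolded protein in the ER is sensed by membrane proteins: the kinase and nuclease IRE1 (gene Ern1), which splices the mRNA of the transcription factor XBP1, the kinase PERK (Eif2ak3), which slows translation while favouring that of ATF4, and ATF6, which is cut and released as a transcription factor. XBP1 and ATF6 raise chaperones, disulfide isomerases and degradation factors, while ATF4 raises amino acid enzymes, the factor CHOP (Ddit3) and feedback genes such as Trib3 and Ppp1r15a. In the B lineage the program is best known from plasma cells, which need Xbp1 to secrete antibody. ATF4 also answers amino acid shortage and other stresses, so its targets do not report on the ER alone. Transcript arrays do not measure splicing of Xbp1, phosphorylation or protein.

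Transcripts were measured on 20 Affymetrix mouse genome arrays in 5 groups of cell lines and 2 groups of bone marrow pre-B cells. The lines were pre-B cells transformed with v-abl, an oncogenic kinase, and all of them were treated with 3 uM STI571 (imatinib, which inhibits that kinase) for 48 h. They were Artemis-deficient lines expressing dominant negative IkB (n = 3, called IkB-DN lines here), lines deficient in both Artemis and ATM (n = 2, each on 2 technical arrays), Artemis-deficient lines (n = 3), wild type lines (n = 3) and RAG-2-deficient lines (n = 3), which the series names as the controls. The marrow set held pre-B cells carrying an IgH transgene, purified from 2 Artemis-deficient samples and from 2 RAG-1-deficient control samples, and their RNA was taken directly after purification, with no STI571. RAG-1 and RAG-2 form the recombinase that cuts antigen receptor genes, Artemis opens the hairpin ends of these breaks, ATM is a kinase that signals breaks, and dominant negative IkB blocks NF-kB, so the comparisons address transcript changes that accompany unrepaired RAG breaks. The sources used here do not say if the 3 IkB-DN samples came from different lines, how the marrow cells were purified, or if animals were pooled. Replicates may thus be cultures or animals, and p values measure only the spread between these samples. The title of wild type replicate 3 contains the letters ATM and those of the RAG-2-deficient lines the letters Bcl, neither of which the labels explain.

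Levels are given as log2(signal + 6) in the lines and log2(signal + 11) in marrow, so that a probe set with no signal would sit at 2.58 or 3.46 and the median probe set of an array at 5.04 to 5.07 or 5.85 to 5.88. Levels of different probe sets depend on their probes and are not compared between genes. Of the 86 probe sets, 77 passed the filter on low values in the lines and 74 in marrow, and each of the 35 genes kept at least 1 probe set in both. A gene is represented by its probe set with the highest mean level unless another is named, and "called" below means a limma adjusted p under 0.05.

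Some samples stood apart. All 10 pre-B markers kept in the lines were at or above the array median in all 14 lines. The IkB-DN replicates correlated with each other across probe sets at 0.976 to 0.983, close to technical arrays of the same line (0.982 and 0.984), while replicates of the other line groups correlated at 0.901 to 0.947. If these 3 samples share their origin, the p values of the IkB-DN comparisons are smaller than they should be. RAG-2-deficient replicate 1 and wild type replicate 2 carried the plasma cell transcript Jchain, the joining chain of secreted antibody. It was 11.22 and 10.82 in these lines and at most 5.60 in the other 12. Other plasma cell markers shared this in part. In the same order Prdm1 was 9.39 and 9.50, but also 9.34 in Artemis- and ATM-deficient replicate 1. Sdc1 was 10.36 and 5.43, Irf4 11.01 and 9.96 and Mzb1 12.27 and 12.50. In wild type replicate 2, Sdc1 and Irf4 were thus not raised. In marrow, 10 of 10 pre-B markers kept were above the array median in all 4 samples, and so were 9 of 9 neutrophil and monocyte markers, with S100a8 at 14.20 and 14.08 in Artemis-deficient and 13.53 and 14.12 in RAG-1-deficient samples. Of the genes the groups are named for, Atm was 5.44 and 5.48 in Artemis- and ATM-deficient lines and at least 6.42 in the other 12, among them wild type replicate 3 at 7.42, while a second Atm probe set differed less, at 6.82 and 6.83 in Artemis- and ATM-deficient lines and higher, up to 7.62, in the other 12. Rag2 kept signal in the RAG-2-deficient lines (4.69, 8.03 and 8.38) and Rag1 in the RAG-1-deficient marrow samples (12.39 and 12.71), but where these probes lie relative to the deleted parts was not looked up, so the levels check nothing, and the Artemis gene was not analysed here.

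Promoters were examined for the letters through which the known factors of this program bind: the ER stress response elements ERSE (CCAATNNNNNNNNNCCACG) and ERSE-II (ATTGGNCCACG), and the C/EBP-ATF response element CARE (TGATGNAA), through which ATF4 acts. Sequences are those of RefSeq on build GRCm38.p6, from 250 bases before to 50 bases from the annotated start, and 30 of the 35 genes had an entry, all but Manf, Hyou1, Atf6, Derl1 and Sec61a1. On either strand ERSE was found in promoters of 9 of 30 genes (30.0%), against 0.119% of 32841 mouse promoters, ERSE-II in 2 (6.67%, against 0.0365%) and CARE in 4 (13.3%, against 3.97%). Member shares are counted by gene and the others by promoter. Genes and motifs were both chosen as known parts of this program, so higher shares among the members were likely in advance and are no finding of these data. ERSE lay in Hspa5, Hsp90b1, Dnajc3, Creld2, Pdia6, Calr, Canx, Derl3 and Syvn1, ERSE-II in Dnajb11 and Herpud1, and CARE in Asns, Chac1, Trib3 and Herpud1. No match overlapped a match of another of these motifs, and a match is a description of letters, not a measured binding site. The promoters below are those of the members on which the results turn, with Hspa5 as the textbook case of ERSE. They are printed 5′ to 3′ in the direction of the gene, and the capitals are the fixed letters of the motifs, which read as the reverse complement where the motif lies on the other strand.
The ERSE of Hspa5 (chr2:34771840-34772139, plus strand) runs from base -65 to -47, counting the annotated start as 0, and that of Syvn1 (chr19:6046326-6046625, plus strand) from -44 to -26.
Hspa5: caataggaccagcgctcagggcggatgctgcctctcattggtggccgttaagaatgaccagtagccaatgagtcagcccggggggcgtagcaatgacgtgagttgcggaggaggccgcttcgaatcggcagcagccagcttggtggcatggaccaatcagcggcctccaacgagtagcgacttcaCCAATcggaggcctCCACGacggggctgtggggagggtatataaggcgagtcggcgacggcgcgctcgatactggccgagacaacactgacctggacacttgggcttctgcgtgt
Syvn1: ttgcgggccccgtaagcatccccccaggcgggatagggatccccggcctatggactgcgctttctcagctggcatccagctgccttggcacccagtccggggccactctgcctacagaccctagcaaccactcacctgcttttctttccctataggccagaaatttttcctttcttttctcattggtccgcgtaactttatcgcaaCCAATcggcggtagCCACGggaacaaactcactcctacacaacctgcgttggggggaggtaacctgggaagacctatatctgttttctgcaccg
In Derl3 (chr10:75893148-75893447, plus strand) and Calr (chr8:84846882-84847181, minus strand) the ERSE is on the other strand, at -156 to -138 and at -162 to -144.
Derl3: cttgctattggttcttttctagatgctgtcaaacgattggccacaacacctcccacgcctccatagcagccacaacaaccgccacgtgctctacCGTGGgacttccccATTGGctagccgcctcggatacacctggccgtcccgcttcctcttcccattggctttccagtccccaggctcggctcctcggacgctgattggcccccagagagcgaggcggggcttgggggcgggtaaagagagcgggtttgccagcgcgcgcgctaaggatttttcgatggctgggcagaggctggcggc
Calr: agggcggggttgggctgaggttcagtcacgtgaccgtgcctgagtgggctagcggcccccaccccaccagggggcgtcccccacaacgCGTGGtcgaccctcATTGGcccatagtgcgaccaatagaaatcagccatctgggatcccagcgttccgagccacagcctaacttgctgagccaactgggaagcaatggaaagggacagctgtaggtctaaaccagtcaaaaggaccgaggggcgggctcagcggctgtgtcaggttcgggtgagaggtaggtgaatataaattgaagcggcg
Herpud1 (chr8:94386179-94386478, plus strand) carries a CARE on the other strand at -112 to -105 and an ERSE-II at -52 to -42.
Herpud1: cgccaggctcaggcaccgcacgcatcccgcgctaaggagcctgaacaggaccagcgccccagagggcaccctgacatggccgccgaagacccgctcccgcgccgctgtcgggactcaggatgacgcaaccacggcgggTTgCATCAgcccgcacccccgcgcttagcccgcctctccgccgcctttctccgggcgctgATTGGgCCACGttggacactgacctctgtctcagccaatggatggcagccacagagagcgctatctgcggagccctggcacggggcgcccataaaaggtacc
Trib3 (chr2:152344011-152344310, minus strand) and Chac1 (chr2:119350992-119351291, plus strand) carry a CARE on the other strand, at 14 to 21 and at -193 to -186.
Trib3: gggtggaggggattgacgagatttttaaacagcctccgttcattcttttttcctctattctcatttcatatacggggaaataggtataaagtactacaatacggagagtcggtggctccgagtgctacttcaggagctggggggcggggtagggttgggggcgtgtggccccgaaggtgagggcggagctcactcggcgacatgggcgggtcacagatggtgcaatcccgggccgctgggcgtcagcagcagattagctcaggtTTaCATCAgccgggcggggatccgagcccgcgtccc
Chac1: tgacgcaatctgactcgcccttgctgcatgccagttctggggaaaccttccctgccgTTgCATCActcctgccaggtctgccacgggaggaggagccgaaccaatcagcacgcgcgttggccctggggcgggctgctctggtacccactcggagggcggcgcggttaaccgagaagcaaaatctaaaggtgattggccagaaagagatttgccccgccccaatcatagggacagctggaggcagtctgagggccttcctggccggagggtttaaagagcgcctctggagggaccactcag

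In marrow, Derl3, Trib3, Sdf2l1, Ddit3 and Syvn1 fell in Artemis-deficient relative to RAG-1-deficient pre-B cells at an adjusted p below 0.05, and limma called 0 member genes higher. The 5 belong to the degradation genes, the PERK-ATF4 branch targets and the ER chaperones, and limma called 0 genes of the other 4 role groups. These were 5 of 35 member genes (14.3%), against 0.795% of all 9933 genes called lower. In probe sets, 6 of 74 (8.11%) were called, all lower, while of all probe sets 2.56% were called, 1.81% higher and 0.748% lower, so that the calls over the whole array leaned the other way. In 24 of 35 genes (68.6%) every Artemis-deficient value lay below both RAG-1-deficient ones, Trib3 by the 1 Artemis-deficient value of its representative probe set, against 25.2% of all genes, and in 3 genes (8.57%: Ern1, Sec61a1 and Ssr1) both lay above, against 25.5%. At an unadjusted p below 0.05 there were 21 of 35 genes (60.0%), against 17.7% of all genes. The median change of the 35 genes was -0.54 and that of all genes -0.00, with 27 changes negative and 8 positive. Trib3 and Chac1 were under the array median in both Artemis-deficient samples and passed the filter through the RAG-1-deficient samples alone, so they had to differ. Without such genes the counts were 4 of 33 called lower (12.1%, against 0.747% of all genes), 22 lower without overlap (66.7%, against 24.6%) and 3 higher (9.09%, against 24.6%). Each group held 2 samples. Arrays of RNA from whole samples cannot tell fewer cells that express a gene from less RNA per cell. The count of 6 called probe sets was 12 without Artemis-deficient replicate 1 and 15 without replicate 2, but 0 without RAG-1-deficient replicate 1 and 1 (Derl3) without RAG-1-deficient replicate 2.

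**Figure D1:**
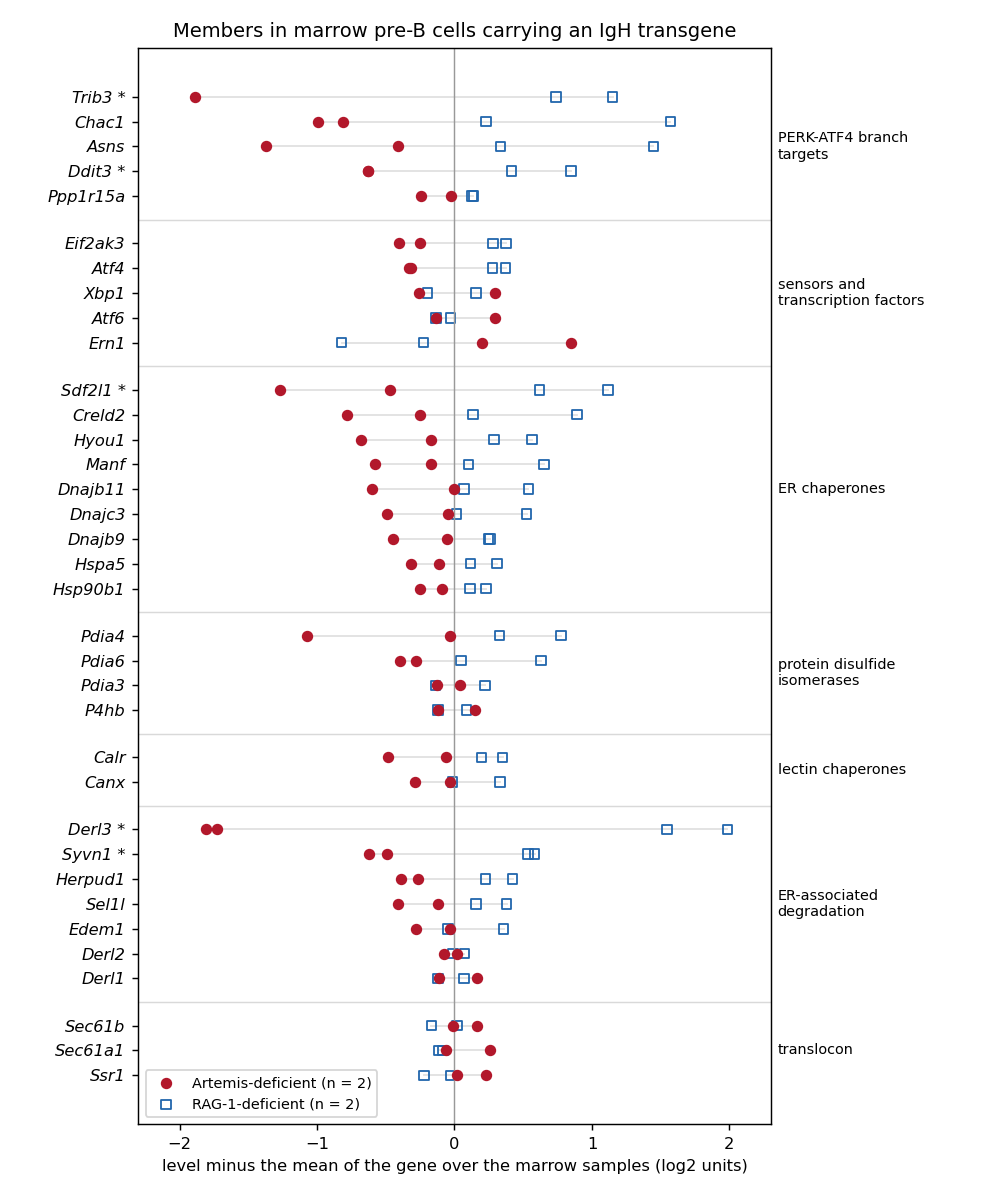
Level of each of the 35 genes in the 4 marrow samples minus the mean of that gene (log2 units), with Artemis-deficient samples as filled circles, RAG-1-deficient samples as open squares, genes grouped by role and a star where a probe set was called. All 9 ER chaperones and 4 of the 5 PERK-ATF4 branch targets have both Artemis-deficient samples left of both RAG-1-deficient ones, and Trib3 has 1 Artemis-deficient value, also to the left, because the other is empty.

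Among the PERK-ATF4 branch targets, Trib3, a pseudokinase that restrains ATF4 and AKT, had an empty cell and 3.82 in the Artemis-deficient samples, against 6.85 and 6.44 in the RAG-1-deficient ones. The level of 3.82 is near the floor of the array. Limma called this probe set lower (adjusted p = 0.0326), but with the empty array left out the fit rests on n = 1 Artemis-deficient sample, assumed to vary like the controls, so the size of the fall is not given. A suffix in its name marks probes shared with other sequences. The other Trib3 probe set, with all 4 values, was at 4.02 and 4.88 in Artemis-deficient and 6.82 and 6.28 in RAG-1-deficient samples and fell by 2.10 ± 0.41 on the log2 scale (SE, n = 2 and 2, adjusted p = 0.0479). It too passed the filter through the RAG-1-deficient samples alone. Ddit3, which encodes the death-promoting factor CHOP, was 7.28 and 7.28 in Artemis-deficient and 8.76 and 8.33 in RAG-1-deficient samples, a fall of 1.26 ± 0.22 (2.40-fold, adjusted p = 0.0353). Here the spread within each group was far smaller than the gap between them.

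Chac1, which degrades glutathione, was 4.89 and 5.08 in Artemis-deficient and 7.46 and 6.12 in RAG-1-deficient samples (change -1.80 ± 0.45, adjusted p = 0.0919). Asns, which makes asparagine, was 6.77 and 7.73 in Artemis-deficient and 9.59 and 8.48 in RAG-1-deficient samples (-1.78 ± 0.42, adjusted p = 0.0792). Both differences were about as large as that of Sdf2l1, but the RAG-1-deficient replicates differed from each other by over 1 log2 unit and neither gene passed the test. Ppp1r15a, also called GADD34, which reverses the translation block set by PERK, was 8.16 and 8.38 in Artemis-deficient and 8.54 and 8.55 in RAG-1-deficient samples (-0.27 ± 0.18, adjusted p = 0.531). Of the 3 targets that reached the array median in both groups, Asns, Ddit3 and Ppp1r15a, the median change was -1.26 and 1 was called. Over all 5 targets, Trib3 and Chac1 included, the median was -1.78.

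Of the sensors and factors above these targets, none was called. Atf4 itself was 10.12 and 10.10 in Artemis-deficient and 10.81 and 10.72 in RAG-1-deficient samples (-0.65 ± 0.15, adjusted p = 0.0758). Eif2ak3, the PERK gene, was 8.56 and 8.71 in Artemis-deficient and 9.24 and 9.33 in RAG-1-deficient samples (-0.65 ± 0.17, adjusted p = 0.102). In both genes the groups lay apart by more than their replicates did. Ern1, the IRE1 gene, ran the other way, at 8.41 and 9.06 in Artemis-deficient and 7.39 and 7.99 in RAG-1-deficient samples (1.05 ± 0.29, adjusted p = 0.119), and was the most positive of the 35 changes. Xbp1 was 11.61 and 12.17 in Artemis-deficient and 12.03 and 11.67 in RAG-1-deficient samples and its groups overlapped (0.04 ± 0.23), with its 4 probe sets between -0.14 and 0.35. Atf6 overlapped too, at 8.39 and 8.82 in Artemis-deficient and 8.49 and 8.39 in RAG-1-deficient samples (0.16 ± 0.21).

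All 9 ER chaperones lay lower in Artemis-deficient samples without overlap, with a median change of -0.61, and 1 was called. Sdf2l1, a cofactor of BiP, was 7.43 and 8.23 in Artemis-deficient and 9.82 and 9.32 in RAG-1-deficient samples and fell by 1.73 ± 0.30 (3.33-fold, adjusted p = 0.0346). Creld2, a disulfide-handling ER protein, was 8.85 and 9.38 in Artemis-deficient and 10.52 and 9.77 in RAG-1-deficient samples (-1.03 ± 0.29, adjusted p = 0.120). Hyou1, the large ER chaperone GRP170, was 8.61 and 9.11 in Artemis-deficient and 9.57 and 9.85 in RAG-1-deficient samples (-0.85 ± 0.22, adjusted p = 0.0970). Hspa5, which encodes BiP, the main ER chaperone and the standard readout of ER stress, was 12.20 and 12.40 in Artemis-deficient and 12.82 and 12.63 in RAG-1-deficient samples (-0.43 ± 0.16, adjusted p = 0.253). Its difference was small beside that of its cofactor. The others were Manf at -0.75, the BiP cofactors Dnajb11 at -0.61, Dnajc3 at -0.54 and Dnajb9 at -0.50, and Hsp90b1 (GRP94) at -0.34, none of them called.

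Degradation genes held the largest fall. Derl3, a derlin that helps move misfolded protein out of the ER and is typical of secretory cells, was 5.87 and 5.95 in Artemis-deficient samples, at about the array median, and 9.67 and 9.23 in RAG-1-deficient ones. It fell by 3.53 ± 0.23 (11.6-fold, adjusted p = 0.00611), the most negative change of the 9933 genes tested in marrow. Syvn1, the ubiquitin ligase HRD1, was 9.77 and 9.64 in Artemis-deficient and 10.80 and 10.84 in RAG-1-deficient samples and fell by 1.12 ± 0.16 (2.17-fold, adjusted p = 0.0258). A suffix in the name of this probe set marks probes shared with other sequences. The other Syvn1 probe set was 9.43 and 8.88 in Artemis-deficient and 10.64 and 10.11 in RAG-1-deficient samples (-1.21) and was not called. Herpud1, which ties HRD1 to the derlins, was 11.61 and 11.49 in Artemis-deficient and 12.30 and 12.10 in RAG-1-deficient samples (-0.65 ± 0.16, adjusted p = 0.0854). Sel1l, the partner of HRD1, lay lower without overlap (-0.54), while Edem1, which selects glycoproteins for degradation, overlapped (-0.31), as did the other derlins Derl2 (-0.06) and Derl1 (0.05) on their representative probe sets. Over all 4 probe sets of Derl1 the changes ran from -0.46 to 0.24, and the most negative one, at 7.19 and 7.68 in Artemis-deficient and 8.08 and 7.70 in RAG-1-deficient samples, lay lower without overlap and was not called.

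Of the disulfide isomerases, which form and shuffle disulfide bonds, Pdia4 was 6.77 and 7.80 in Artemis-deficient and 8.62 and 8.17 in RAG-1-deficient samples (-1.11 ± 0.35, adjusted p = 0.163). Pdia6 was 10.35 and 10.46 in Artemis-deficient and 11.37 and 10.79 in RAG-1-deficient samples (-0.67 ± 0.21, adjusted p = 0.165). Both lay lower without overlap, whereas Pdia3, which works with the lectin chaperones, overlapped (11.19 and 11.35 in Artemis-deficient and 11.53 and 11.17 in RAG-1-deficient samples, change -0.09), as did P4hb (0.03). The lectin chaperones, which hold glycoproteins in the ER, lay lower: Calr was 11.56 and 11.98 in Artemis-deficient and 12.39 and 12.24 in RAG-1-deficient samples (-0.55 ± 0.19, adjusted p = 0.197), and Canx was 11.23 and 11.48 in Artemis-deficient and 11.85 and 11.50 in RAG-1-deficient samples (-0.32 ± 0.18, adjusted p = 0.443). The translocon genes did not share this sign. Sec61a1, the pore subunit, was 10.46 and 10.78 in Artemis-deficient and 10.44 and 10.41 in RAG-1-deficient samples (0.20), Ssr1, a translocon-associated subunit, was 10.94 and 11.15 in Artemis-deficient and 10.89 and 10.70 in RAG-1-deficient samples (0.25), and Sec61b was 11.60 and 11.78 in Artemis-deficient and 11.45 and 11.63 in RAG-1-deficient samples (0.15), none called. Across the 20 members with several probe sets in marrow, all probe sets of the gene had the same sign in 15.

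Other genes of the same pathways were taken from 5 lists, and differences between the lists were not tested. Of 22 other ATF4 and amino acid response genes, 19 changes were negative (median -0.49) and 15 lay lower without overlap, against 25.2% of all genes. Mthfd2, of mitochondrial folate metabolism (-1.18 ± 0.22, adjusted p = 0.0404), and Eif4ebp1, a brake on translation (-1.09 ± 0.18, adjusted p = 0.0310), fell, where 0.795% of all genes were called lower. Of 31 other ER folding, export and degradation genes limma called 0, the median change was 0.01, and 7 had an unadjusted p below 0.05, against 17.7% of all genes. The medians were -0.10 in 15 other translocation genes, -0.04 in 13 other stress kinases, proteases and factors, and 0.14 in 12 cytosolic and mitochondrial heat shock genes. In each of these 3 lists limma called 0 genes, with 1, 3 and 0 at an unadjusted p below 0.05.

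Markers of other cells moved in the same samples. Neutrophil and monocyte markers were more positive in Artemis-deficient samples in 9 of 9 genes (median 0.67), with Lyz2 called (1.05 ± 0.16, adjusted p = 0.0292), and their mean level, centred on the 4 samples, was 0.44 and 0.34 in Artemis-deficient and -0.64 and -0.15 in RAG-1-deficient samples. Pre-B markers were lower in 9 of 10 genes (median -0.95), with Vpreb1, of the surrogate light chain (-1.33 ± 0.23, adjusted p = 0.0358), and Rag1, which the control mice lack as a working gene (-2.00 ± 0.22, adjusted p = 0.0229), called, and their mean level was -0.17 and -0.63 in Artemis-deficient and 0.42 and 0.37 in RAG-1-deficient samples. Plasma cell markers that passed the filter were lower in 4 of 4 genes (median -0.66, none called), at a mean of -0.25 and -0.44 in Artemis-deficient and 0.26 and 0.44 in RAG-1-deficient samples. Jchain, another plasma cell marker, was no higher than 5.91 in any marrow sample and did not pass the filter. It lay the other way, at 5.91 and 5.78 in Artemis-deficient and 4.23 and 5.07 in RAG-1-deficient samples. The T cell marker Cd4 was 8.66 and 10.13 in Artemis-deficient samples and empty in both RAG-1-deficient ones. The other T cell markers did not share this: Cd8a overlapped (6.41 and 6.10 in Artemis-deficient and 6.13 and 6.17 in RAG-1-deficient samples). Cd3g and Cd3e did not pass the filter, and Cd3e was empty in both Artemis-deficient samples. Nkg7 was 11.25 and 10.96 in Artemis-deficient and 10.04 and 10.47 in RAG-1-deficient samples. Proliferation genes had a median of -0.17 over 13 genes. The mean centred level of the 9 ER chaperones was -0.60 and -0.15 in Artemis-deficient and 0.53 and 0.22 in RAG-1-deficient samples. The part of these cell markers in the differences of the members was not tested.

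**Figure D2:**
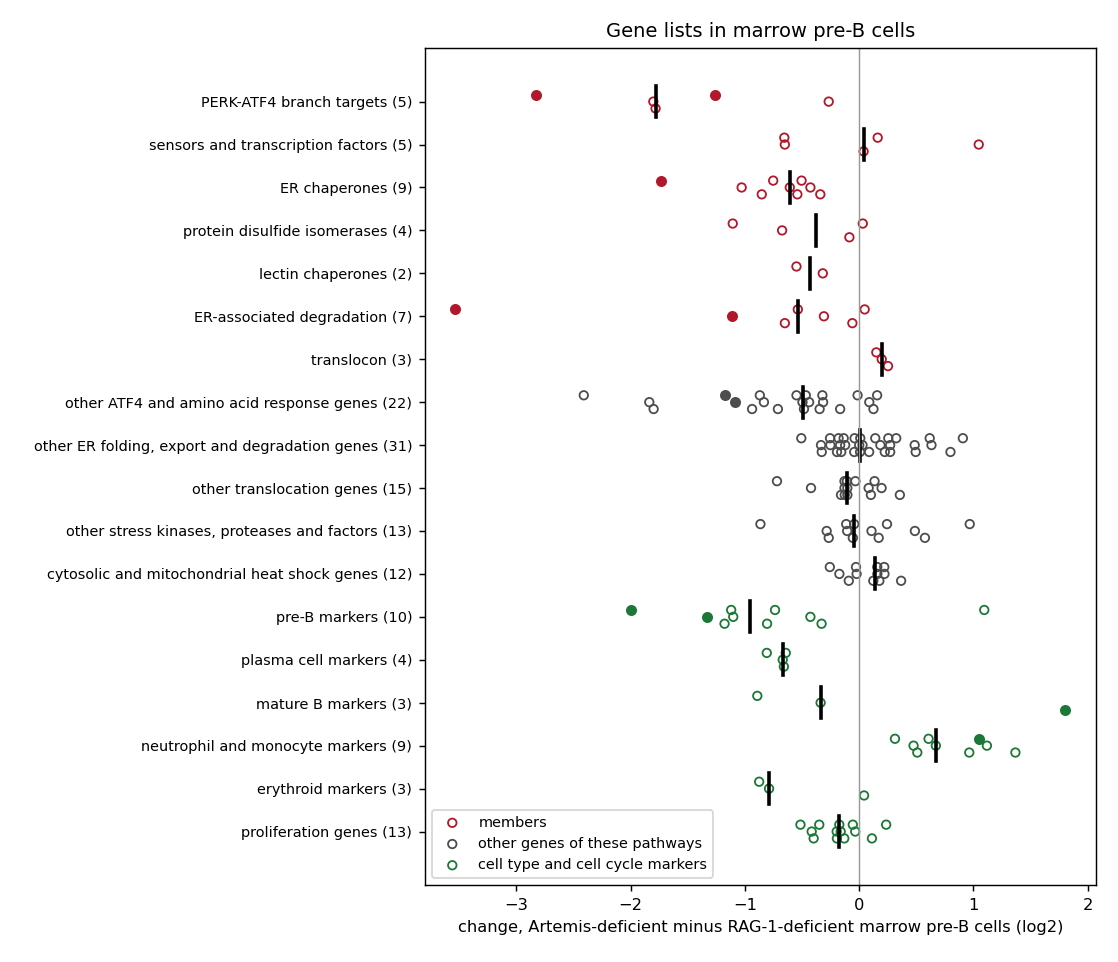
Change of each gene in Artemis-deficient minus RAG-1-deficient marrow pre-B cells (log2) for the 7 role groups, 5 lists of other genes of these pathways and 6 marker lists, with filled points for genes called, black bars at the list median and the number of genes in brackets. The PERK-ATF4 branch targets have the lowest median (-1.78) and the neutrophil and monocyte markers the highest (0.67). Without Trib3 and Chac1, which passed the filter through the RAG-1-deficient samples alone, the median of the targets is -1.26.

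Marrow changes were also laid beside the promoter letters. All 14 members with a match to at least 1 of the 3 motifs lay lower in Artemis-deficient samples without overlap (Trib3 by 1 value), with a median change of -0.66 (-3.53 to -0.32) and 3 called. Of the 16 whose promoters held none, 8 lay lower without overlap, with a median of -0.29 (-1.73 to 1.05) and 2 called, Sdf2l1 and Ddit3. Motifs more than 250 bases before the start were not looked for. Of all genes tested, 25.2% lay lower without overlap and 0.795% were called lower. The 4 CARE genes had a median of -1.79 and the 9 ERSE genes one of -0.55. Trib3 and Chac1, which passed the filter through the RAG-1-deficient samples alone and so had to differ, are among the CARE genes and the 14. The CARE median thus rests partly on them. All these counts and medians are over genes of the same 4 samples, and no test was made of them.

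In the lines calls among the members were few outside the comparisons with dominant negative IkB. Limma called 0 of 77 member probe sets in Artemis-deficient minus RAG-2-deficient, in wild type minus RAG-2-deficient, in Artemis- and ATM-deficient minus RAG-2-deficient and in Artemis-deficient minus wild type lines. The shares of all probe sets called there were 1.16%, 0.835%, 0.698% and 0.504%, in the same order. At an unadjusted p below 0.05 the 4 comparisons held 17 (22.1%), 5 (6.49%), 9 (11.7%) and 12 (15.6%) member probe sets, against 13.8%, 12.5%, 11.7% and 12.3% of all probe sets. Of the other comparisons, IkB-DN minus RAG-2-deficient lines held 9 called member probe sets (11.7%, against 10.0% of all probe sets). IkB-DN minus Artemis-deficient lines held 2 (2.60%, against 2.06%), and both shares are near those of the whole array. Artemis- and ATM-deficient minus Artemis-deficient lines held 1, of Trib3 (1.30%, against 0.284%). The comparisons with RAG-2-deficient lines share the same 3 control lines, so their values are given side by side and not as independent evidence.

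**Figure D3:**
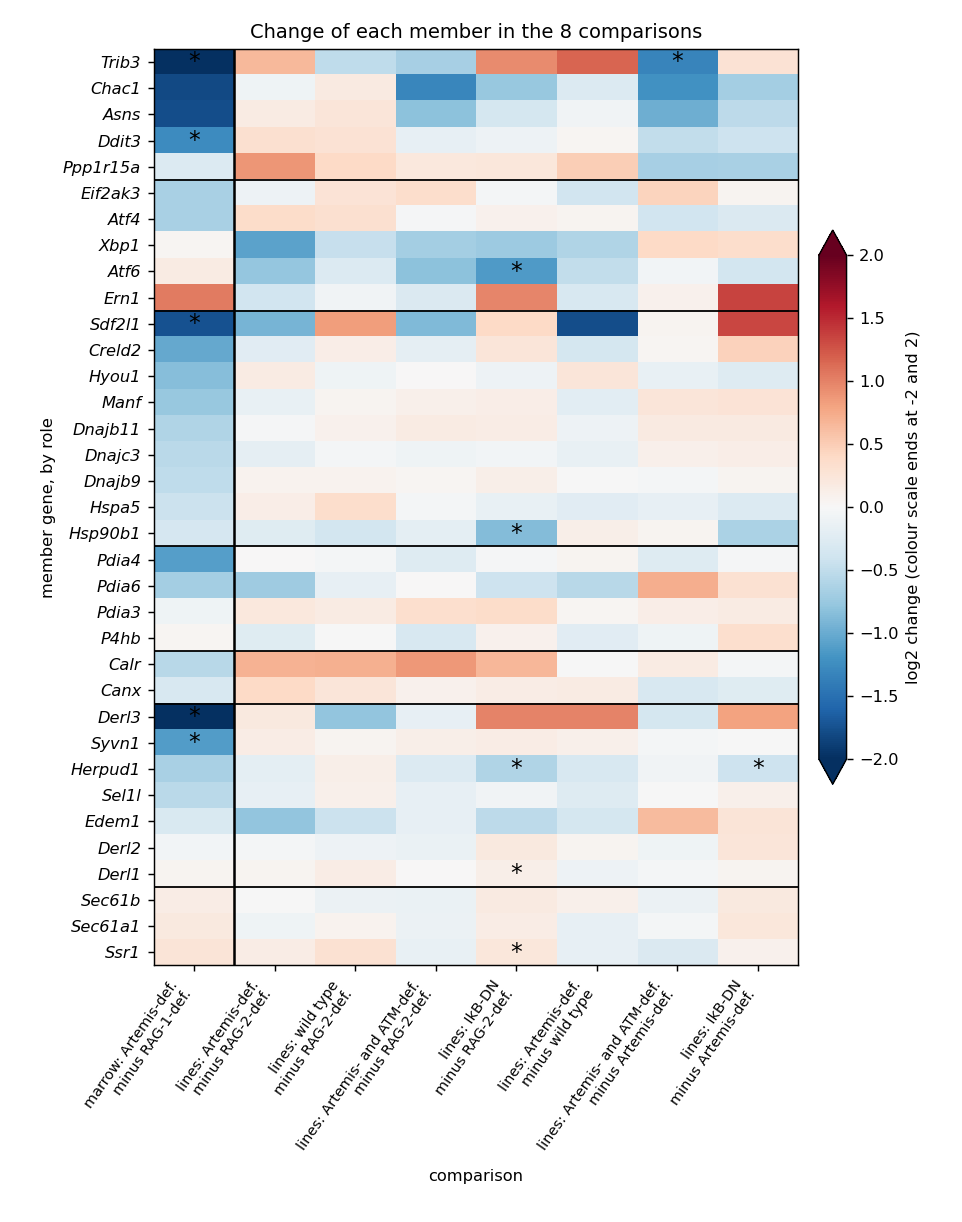
Log2 change of the representative probe set of each member (rows, by role) in the 8 comparisons (columns, marrow first), with red for higher and blue for lower in the group named before minus, and a star where any probe set of the gene was called. In the marrow column all PERK-ATF4 branch targets and ER chaperones are blue and Ern1 is red, while in the lines stars stand in the IkB-DN columns and at Trib3.

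Artemis-deficient lines, in which RAG breaks cannot be joined, differed little from RAG-2-deficient lines: the median change of the 35 genes was -0.02, and 3 genes lay higher (8.57%, against 9.73% of all genes) and 3 lower (8.57%, against 9.18%) without overlap, which is near the share of all genes. Ppp1r15a came closest to a call, at 7.42, 7.22 and 7.11 in Artemis-deficient and 6.02, 6.36 and 6.71 in RAG-2-deficient lines (0.88 ± 0.20, adjusted p = 0.0582). It was also lower than in the Artemis-deficient lines in every line of the other 3 groups, which lay between 6.40 and 6.99. It was called without RAG-2-deficient replicate 3 and when arrays were weighted. Trib3 overlapped between these groups (6.82, 6.72 and 5.60 in Artemis-deficient and 5.01, 6.49 and 5.67 in RAG-2-deficient lines), as did Ddit3 (8.57, 8.55 and 7.48 in Artemis-deficient and 7.06, 8.50 and 8.08 in RAG-2-deficient lines). In both genes Artemis-deficient replicate 3 and RAG-2-deficient replicate 1 were the low samples.

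Calr showed a pattern of the control lines. It was 7.93, 8.27 and 8.84 in Artemis-deficient lines and 7.54, 7.74 and 7.65 in RAG-2-deficient lines (0.70 ± 0.20, adjusted p = 0.136). The other groups were above the RAG-2-deficient lines as well, IkB-DN lines by 0.66 ± 0.20 (adjusted p = 0.0586), Artemis- and ATM-deficient lines by 0.87 ± 0.23 (adjusted p = 0.117) and wild type lines by 0.71 ± 0.20 (adjusted p = 0.153). The lowest of these 11 lines was the Artemis-deficient one at 7.93, still above every RAG-2-deficient line, but no comparison was called. Canx was 10.04, 9.96 and 9.61 in Artemis-deficient lines and 9.42, 9.49 and 9.50 in RAG-2-deficient lines (0.40 ± 0.11, adjusted p = 0.129). It was called with Artemis-deficient replicate 3 left out.

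Atf6 and Pdia6 were lower in Artemis-deficient lines without passing the test. Atf6 was 7.06, 6.99 and 6.92 in Artemis-deficient and 8.04, 7.66 and 7.57 in RAG-2-deficient lines (-0.77 ± 0.24, adjusted p = 0.168), and Pdia6 was 7.90, 7.83 and 7.86 in Artemis-deficient and 8.86, 8.48 and 8.40 in RAG-2-deficient lines (-0.72 ± 0.24, adjusted p = 0.190). In both genes the Artemis-deficient lines were closely alike and below every control line. P4hb was 8.40, 8.25 and 8.82 in Artemis-deficient and 8.99, 8.58 and 8.63 in RAG-2-deficient lines (-0.24), and Pdia3 was 8.69, 8.99 and 9.19 in Artemis-deficient and 9.04, 8.69 and 8.53 in RAG-2-deficient lines (0.20), both with overlap.

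Xbp1 was 8.67, 9.07 and 9.59 in Artemis-deficient and 11.45, 9.93 and 9.15 in RAG-2-deficient lines (-1.07 ± 0.59, adjusted p = 0.467). RAG-2-deficient replicate 1 and wild type replicate 2, at 11.45 and 11.01, were the high samples, and the other 12 lines were at most at 9.93. These were the lines that carried Jchain. Ern1 was 6.55, 6.50 and 7.31 in Artemis-deficient and 8.36, 6.51 and 6.63 in RAG-2-deficient lines (-0.38), with the same control line high. Edem1 was 7.72, 7.80 and 7.64 in Artemis-deficient and 9.08, 7.74 and 8.71 in RAG-2-deficient lines (-0.79 ± 0.27, adjusted p = 0.209) and was called without RAG-2-deficient replicate 2.

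Among the chaperones Sdf2l1 varied most between the lines, although most of its levels lay under the array median. It was 3.53, 3.01 and 4.48 in Artemis-deficient lines and 4.86, 4.32 and 4.64 in RAG-2-deficient lines (-0.93 ± 0.38, adjusted p = 0.300). Against wild type lines, at 5.68, 5.69 and 4.97, the change was -1.78 ± 0.38 (adjusted p = 0.0661), and it was called without Artemis-deficient replicate 3. Sdf2l1 reached the array median only in the wild type lines at 5.68 and 5.69 and in IkB-DN replicate 3. Without the wild type lines it would not have passed the filter. A fall against them was thus partly built in, and neither the p value nor that call can be taken as support for it. Hsp90b1 was 10.06, 9.82 and 10.43 in Artemis-deficient and 10.52, 9.99 and 10.54 in RAG-2-deficient lines (-0.24), and Creld2 was 6.29, 6.57 and 6.81 in Artemis-deficient and 7.33, 6.41 and 6.61 in RAG-2-deficient lines (-0.23), with overlap in both. Hspa5 ranged from 8.97 to 9.90 over all 14 lines, its change was 0.13 ± 0.22, and the groups overlapped.

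Derl3, the gene with the largest fall in marrow, was 4.71, 5.46 and 7.04 in Artemis-deficient and 6.59, 5.56 and 4.48 in RAG-2-deficient lines, and its replicates spread over more than 2 log2 units in both groups (0.19 ± 0.57). Syvn1 lay between 8.97 and 9.60 in all lines. Herpud1 was 11.87, 12.02 and 11.84 in Artemis-deficient and 12.06, 12.20 and 12.07 in RAG-2-deficient lines (-0.20 ± 0.07, adjusted p = 0.259), a small gap with no overlap. The translocon genes Ssr1 (7.87, 8.12 and 8.16 in Artemis-deficient and 8.13, 7.95 and 7.64 in RAG-2-deficient lines), Sec61a1 (8.83, 8.83 and 8.87 in Artemis-deficient and 9.32, 8.75 and 8.72 in RAG-2-deficient lines) and Sec61b (9.79, 9.84 and 9.85 in Artemis-deficient and 10.13, 9.65 and 9.74 in RAG-2-deficient lines) had changes of 0.14, -0.09 and -0.01. Of the other pathway genes, Erp29, an ER folding protein, fell by 1.19 ± 0.26 (adjusted p = 0.0491), the only call in the 5 lists.

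**Figure D4:**
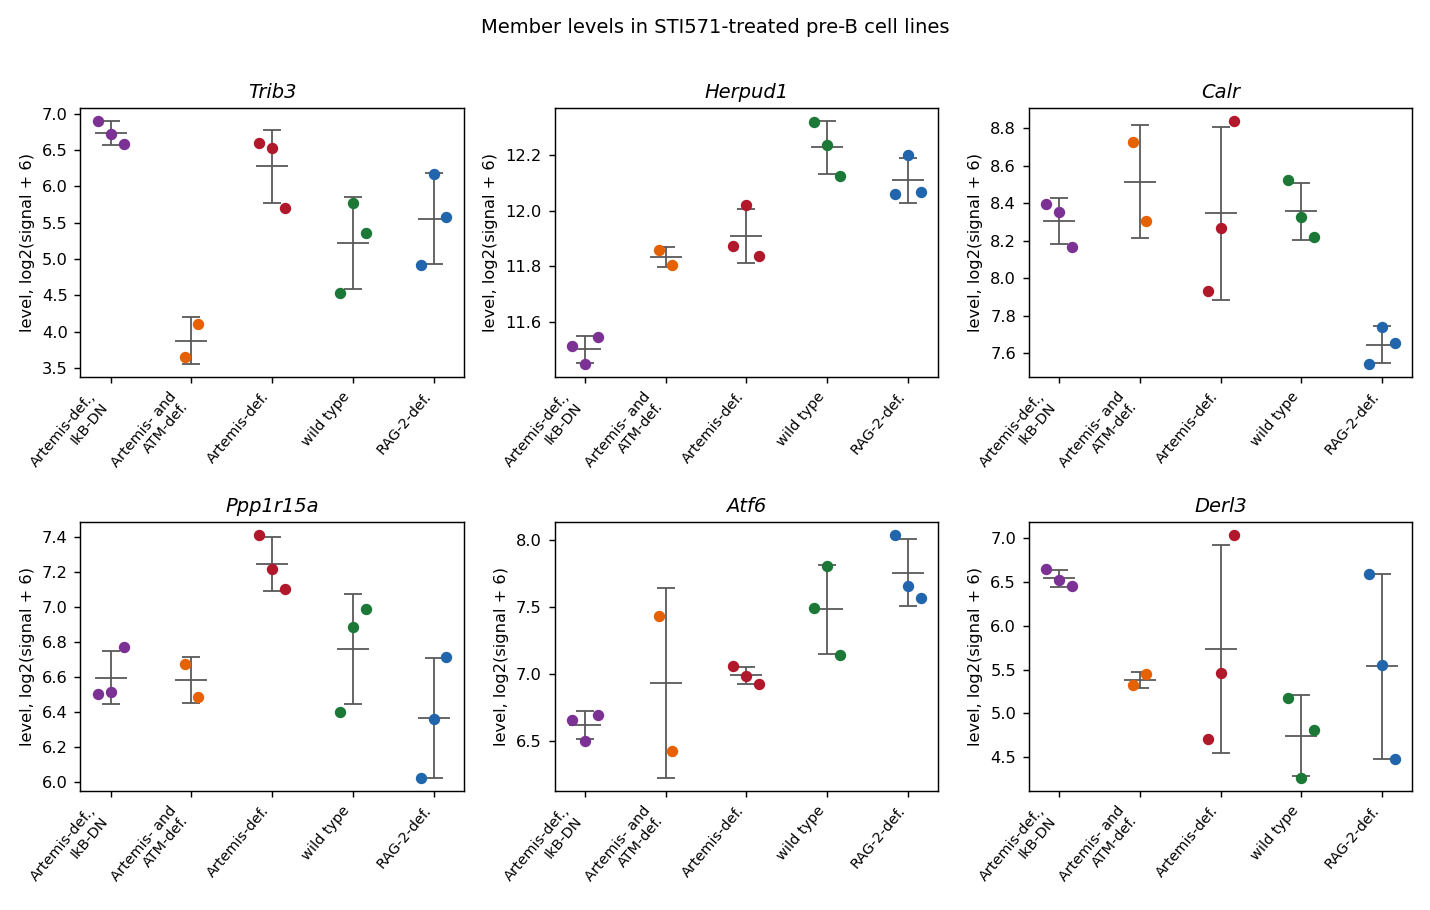
Level of 6 members in each line, log2(signal + 6), with IkB-DN lines at the left and RAG-2-deficient lines at the right of every panel, points for lines and bars for the mean and SD (n = 3, and n = 2 for Artemis- and ATM-deficient lines). Vertical scales differ and do not start at 0. Trib3 is drawn on its probe set without shared probes, which is not the representative one. On it Trib3 is lowest in both Artemis- and ATM-deficient lines, while on the other Trib3 probe set a wild type line was lower. Herpud1 is lowest in the IkB-DN lines, and Calr in the RAG-2-deficient lines.

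Wild type lines, in which RAG breaks can be joined, had a median member change of 0.08 against RAG-2-deficient lines. Apart from Calr, the largest values were Sdf2l1 at 0.84 ± 0.38 (adjusted p = 0.386) and Derl3 at -0.79 ± 0.57 (adjusted p = 0.631). Sdf2l1 passed the filter through the wild type lines, so its rise was partly built in. Between Artemis-deficient and wild type lines Herpud1 was 11.87, 12.02 and 11.84 in Artemis-deficient and 12.32, 12.24 and 12.13 in wild type lines (-0.32 ± 0.07, adjusted p = 0.0898), with no overlap. Trib3 was 6.82, 6.72 and 5.60 in Artemis-deficient and 4.63, 5.84 and 5.16 in wild type lines (1.17 ± 0.41, adjusted p = 0.256), and Artemis-deficient replicate 3 lay within the wild type range. Of the other pathway genes Sec63, of the translocon, was called higher in Artemis-deficient lines (0.86 ± 0.16, adjusted p = 0.0454).

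The comparison of lines deficient in Artemis and ATM with lines deficient in Artemis alone asks what ATM adds. Trib3 was the member called: on the probe set without shared probes it was 3.65 and 4.11 in Artemis- and ATM-deficient and 6.60, 6.53 and 5.70 in Artemis-deficient lines, and it fell by 2.40 ± 0.42 (SE, n = 2 and 3, 5.28-fold, adjusted p = 0.0372), with both Artemis- and ATM-deficient levels under the array median. The other Trib3 probe set was 4.89 and 5.22 in Artemis- and ATM-deficient and 6.82, 6.72 and 5.60 in Artemis-deficient lines (-1.32 ± 0.46, adjusted p = 0.341), lower without overlap and not called. This was 1 of 77 member probe sets (1.30%), against 0.284% of all probe sets. The call was lost when any of the samples other than Artemis-deficient replicate 3 was left out, with changes of -2.63 to -2.17 and adjusted p of 0.0855 to 0.168. Both Artemis- and ATM-deficient lines also lay below all 3 RAG-2-deficient lines on that probe set (4.91, 6.17 and 5.59), by 1.68 ± 0.42 (adjusted p = 0.102).

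The other branch targets had the same sign in these lines. Chac1 was 4.47 and 4.55 in Artemis- and ATM-deficient and 6.77, 5.33 and 5.05 in Artemis-deficient lines (-1.21 ± 0.67), Asns 7.76 and 6.97 in Artemis- and ATM-deficient and 8.85, 8.49 and 7.69 in Artemis-deficient lines (-0.98 ± 0.50), Ppp1r15a 6.68 and 6.49 in Artemis- and ATM-deficient and 7.42, 7.22 and 7.11 in Artemis-deficient lines (-0.67 ± 0.22) and Ddit3 7.48 and 7.94 in Artemis- and ATM-deficient and 8.57, 8.55 and 7.48 in Artemis-deficient lines (-0.49 ± 0.40), none called (adjusted p 0.316 to 0.768). The median of the 5 was -0.98, and that of all genes -0.02. Without overlap, 6 of 35 members lay lower (17.1%, against 14.4% of all genes: Chac1, Ppp1r15a, Trib3, Canx, Derl2 and Sec61b) and 2 higher (5.71%, against 12.4%: Edem1 and Pdia6). Of 22 other ATF4 genes 17 changes were negative (median -0.25), and limma called 0, with 3 at an unadjusted p below 0.05. ER chaperones had a median of 0.05 and none lay apart.

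Dominant negative IkB came with the most calls of the line comparisons. Against RAG-2-deficient lines, 9 of 77 member probe sets were called (11.7%, against 10.0% of all probe sets), 2 higher (2.60%, against 5.09%) and 7 lower (9.09%, against 4.91%), so the number called is near that of the whole array. Herpud1 was 11.51, 11.45 and 11.55 in IkB-DN and 12.06, 12.20 and 12.07 in RAG-2-deficient lines and fell by 0.61 ± 0.07 (SE, n = 3 and 3, adjusted p = 0.000991), and by 0.61 ± 0.09 on its other probe set (adjusted p = 0.00247). Atf6 was 6.66, 6.50 and 6.70 in IkB-DN and 8.04, 7.66 and 7.57 in RAG-2-deficient lines and fell by 1.14 ± 0.24 (adjusted p = 0.0124), with the other 2 probe sets also called (-1.14 and -0.96). Its lowest line outside the IkB-DN group was Artemis- and ATM-deficient replicate 2 at 6.43.

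Hsp90b1, the ER form of HSP90, was 9.46, 9.45 and 9.53 in IkB-DN and 10.52, 9.99 and 10.54 in RAG-2-deficient lines and fell by 0.87 ± 0.20 (adjusted p = 0.0196), and by 0.99 ± 0.21 on its other probe set (adjusted p = 0.0114). The IkB-DN lines were below all 11 other lines, of which the lowest was wild type replicate 3 at 9.61. Derl1 and Ssr1 rose on 1 probe set each, Derl1 at 8.29, 7.93 and 8.26 in IkB-DN and 7.42, 7.58 and 7.50 in RAG-2-deficient lines (0.66 ± 0.12, adjusted p = 0.00584) and Ssr1 at 7.63, 7.54 and 7.43 in IkB-DN and 6.70, 6.41 and 6.22 in RAG-2-deficient lines (1.09 ± 0.21, adjusted p = 0.00901). Their highest probe sets had differences of 0.11 and 0.22 and were not called, so these rises hold for part of the probe sets only.

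Against Artemis-deficient lines, where the labelled difference is the dominant negative IkB, Herpud1 was the member called, on both probe sets (2 of 77, 2.60%, against 2.06% of all probe sets). It was 11.51, 11.45 and 11.55 in IkB-DN and 11.87, 12.02 and 11.84 in Artemis-deficient lines and fell by 0.41 ± 0.07 (adjusted p = 0.0194), and by 0.44 ± 0.09 on the other probe set (adjusted p = 0.0281). The order of the groups was IkB-DN, Artemis- and ATM-deficient (11.86 and 11.81), Artemis-deficient, RAG-2-deficient and wild type (12.32, 12.24 and 12.13). Artemis- and ATM-deficient lines overlapped with Artemis-deficient ones, and RAG-2-deficient with wild type lines, and the 14 lines spanned less than 1 log2 unit in all. Both calls were lost whenever a sample other than Artemis-deficient replicate 3 was left out (adjusted p 0.0591 to 0.134).

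Other members differed in IkB-DN lines without a call. Ern1 was 7.92, 8.17 and 8.32 in IkB-DN and 6.55, 6.50 and 7.31 in Artemis-deficient lines (1.35 ± 0.46, adjusted p = 0.142), above every other line but RAG-2-deficient replicate 1. Sdf2l1 was 4.88, 4.72 and 5.42 in IkB-DN and 3.53, 3.01 and 4.48 in Artemis-deficient lines (1.33 ± 0.38, adjusted p = 0.0906), and Ppp1r15a was 6.50, 6.52 and 6.77 in IkB-DN and 7.42, 7.22 and 7.11 in Artemis-deficient lines (-0.65 ± 0.20, adjusted p = 0.111). Derl3 was 6.65, 6.52 and 6.45 in IkB-DN lines, within the range of the Artemis-deficient ones. Without overlap, 8 of 35 members lay higher (22.9%, against 16.5% of all genes) and 4 lower (11.4%, against 15.2%). The higher ones were Ern1, Sdf2l1, Creld2, Pdia6, Edem1, Derl2, Sec61a1 and Sec61b, and the lower ones Atf6, Ppp1r15a, Hsp90b1 and Herpud1.

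Of the other pathway genes, those called with the largest changes in IkB-DN minus RAG-2-deficient lines were Nfe2l2, a factor of the oxidative stress response (-1.58), the ER folding genes Txndc11 (-1.34) and Erp29 (-1.13), and the heat shock cofactor Dnajb1 (-0.99). Calls in these lists went both ways, since Sil1 (0.94) and Hspe1 (0.46) were called higher. Of all probe sets, 10.0% were called in that comparison. Against Artemis-deficient lines, where 2.06% of all probe sets were called, the genes called were Phgdh, of serine synthesis (-1.93), the degradation enzyme Ube2g2 (-1.31) and the signal peptidase subunit Sec11c (-0.93). Of 22 other ATF4 genes, 21 changes were negative against RAG-2-deficient lines (median -0.40) and 18 against Artemis-deficient lines (median -0.25). The myeloid gene Lyz2 was 6.50, 6.63 and 7.04 in IkB-DN lines and at most 4.91 elsewhere. Against RAG-2-deficient lines the myeloid gene Elane rose too (0.95 ± 0.25, adjusted p = 0.0343), while Csf1r was not called and Ngp overlapped. S100a8, S100a9, Mpo, Ltf and Camp did not pass the filter. Of the plasma cell markers Prdm1 (-4.17 ± 0.83, adjusted p = 0.00988) and Irf4 (-0.90 ± 0.26, adjusted p = 0.0460) fell against RAG-2-deficient lines. Sdc1, Mzb1 and Jchain overlapped. Igll1 was the pre-B marker called in that comparison, and it rose (2.02 ± 0.48, adjusted p = 0.0217). The part of these markers in the values of the members was not tested.

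The role groups were also followed in each of the 14 lines. The mean centred level of the PERK-ATF4 branch targets was -0.14, -0.04 and 0.06 in IkB-DN, -0.56 and -0.58 in Artemis- and ATM-deficient, 0.87, 0.44 and -0.23 in Artemis-deficient, -0.18, 0.51 and -0.06 in wild type and -0.91, 0.55 and 0.28 in RAG-2-deficient lines. The lowest line was thus a control, RAG-2-deficient replicate 1, with Asns at 6.98 and Ddit3 at 7.06. In the lectin chaperones all 3 RAG-2-deficient lines (-0.45, -0.32 and -0.36) lay below the other 11 lines (-0.06 or more). ER chaperone means lay between -0.27 and 0.34 and overlapped in every pair of groups with the RAG-2-deficient lines. In the comparison of technical arrays the median absolute difference of the member probe sets was 0.13 in both Artemis- and ATM-deficient lines, with a maximum of 1.42 and 1.14, both in Ssr1.

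**Figure D5:**
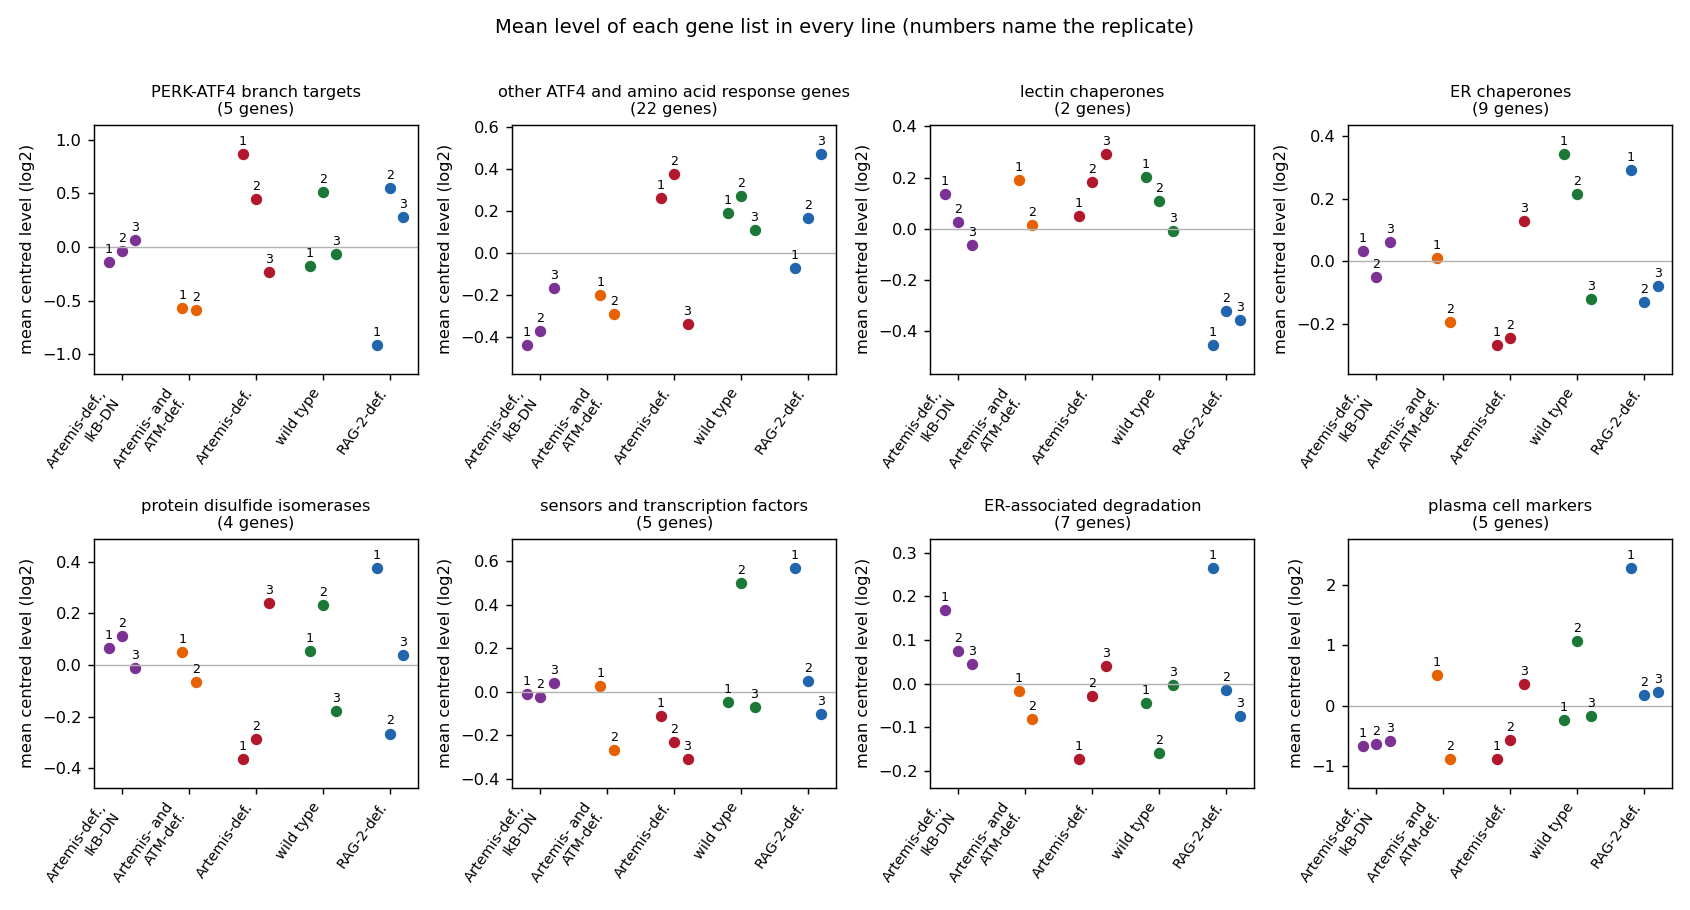
Mean centred level (log2) of 6 role groups, the other ATF4 genes and the plasma cell markers in each of the 14 lines, with groups on the horizontal axis from IkB-DN at the left to RAG-2-deficient at the right and the replicate number above each point. The 3 RAG-2-deficient lines are lowest in the lectin chaperones, and their replicate 1 is lowest in the PERK-ATF4 branch targets and highest in the plasma cell markers.

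Genes outside the members were ranked by how closely their level followed the mean of the 9 ER chaperones over the 14 lines. The 10 closest of 9381 were Slbp (Pearson r = 0.906), Tubg1 (0.904), Dnmt1 (0.899), Fkbp2 (0.899), Rap1a (0.898), Tnfrsf13b (0.897), Srpk3 (0.882), Ssr2 (0.872), Rabgef1 (0.862) and Rfc5 (0.859). Fkbp2, an ER prolyl isomerase, and Ssr2, a translocon-associated subunit, belong to the ER, and Slbp, Dnmt1 and Rfc5 act in S phase. The 14 points share arrays and groups, wild type replicate 1 was the highest line both in ER chaperones (0.34) and in proliferation genes (2.27), and the correlations are a description.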

How the data were processed

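RNA of 20 samples was hybridised to Affymetrix mouse arrays and read with the maker's GeneChip Operating Software, per the labels' protocols. The deposited values are log10 signals, a base inferred from their range since no label gives it, and the sources used here do not say how the authors summarised and scaled them. Of the cells of the 44200 probe sets, 14.7% hold no value and were kept empty. Lines and marrow, whose median signals differ (26.8 to 27.7 and 46.9 to 47.8), were processed apart. Values were returned to signals, a pseudocount was added, the 25th percentile of the set (6 or 11), and log2 was taken. Technical pairs of arrays (Artemis- and ATM-deficient lines) entered as their mean, which left 14 line samples and 4 marrow samples. Probe sets with at least 2 samples at or above the median of their own array were kept, 21843 in the lines and 19520 in marrow. Of all probe sets, 34294 named 1 gene, 916 several and 8990 none.

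Differences were tested with limma 3.58.1 (lmFit, eBayes with an intensity trend) in R 4.3.3, two-sided, with Benjamini-Hochberg adjustment over all probe sets of a comparison. All 5 line groups shared a fit. The fit was tested on simulated data. Changes are limma's log2 differences ± SE. They and the fold changes made from them understate changes of low signals. Tables and figures were made with Python 3.11.15 and matplotlib 3.10.9. Arrays have no read depth, and their number limits the precision.

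The members, the other gene lists and the comparisons were chosen with earlier results of these data known. Values in every sample were given for members with a called probe set and, in each role group, for up to 3 members with the largest change between Artemis-deficient and RAG-2-deficient lines and in marrow, and for the other pathway lists up to 4 called genes per comparison. The other lists were ATF4 and amino acid genes, ER folding, translocation, stress factor and heat shock genes, and markers of pre-B, plasma, mature B, neutrophil and monocyte, erythroid, and T and NK cells and of proliferation. Erythroid markers had a median change of -0.79 in marrow (3 tested), T and NK markers 0.47 (2 tested) and mature B markers -0.34 (3 tested). Other settings were a pseudocount of 1 or the median signal, other filters, quantile normalization, no trend, array weights, other treatments of technical arrays, and each sample left out.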

Additional observations from a re-analysis of the deposited data

Results flagged for a closer look

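In 3 members every Artemis-deficient line lay above every RAG-2-deficient line while both Artemis-deficient marrow samples lay below both RAG-1-deficient ones (8.57% of 35, against 2.02% of 8877 genes tested in both sets). The changes were 0.88 in lines and -0.27 in marrow for Ppp1r15a, 0.70 and -0.55 for Calr, and 0.40 and -0.32 for Canx. None of the 6 changes was called, and the difference between lines and marrow was not tested. Groups of 2 or 3 samples are too small for a test of single outlying samples, so none was made.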

How the results depend on the processing

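With 2 or 3 samples a group, p values measure only the spread between these samples. With 1 sample left out of a marrow group, the lone sample is assumed to vary like the other group. Signals near the floor limit Trib3 in both sets and Sdf2l1 in the lines. No paired analysis was possible because the replicate numbers were given in accession order and pair no samples.

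The counts are of member probe sets called. Leaving out each sample in turn gave 0 to 1 in Artemis-deficient minus RAG-2-deficient lines (0 with all samples), 0 to 0 in wild type minus RAG-2-deficient lines (0), 0 to 1 in Artemis- and ATM-deficient minus RAG-2-deficient lines (0), 5 to 10 in IkB-DN minus RAG-2-deficient lines (9, and 5 without IkB-DN replicate 2), 0 to 1 in Artemis-deficient minus wild type lines (0), 0 to 1 in Artemis- and ATM-deficient minus Artemis-deficient lines (1), 0 to 3 in IkB-DN minus Artemis-deficient lines (2) and 0 to 15 in marrow (6). Member genes lower without overlap in marrow numbered 24 to 28 (24) and higher ones 3 to 8 (3), and the shares of all genes 34.7% to 41.9% and 34.4% to 42.0%. Leaving out samples, chosen after seeing the data, can only add to these counts, so they say nothing of stability.

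With array weights the count was 1 in Artemis-deficient minus RAG-2-deficient lines, 16 in IkB-DN minus RAG-2-deficient lines and 13 in IkB-DN minus Artemis-deficient lines, and with the technical arrays as a random block it was 1 in the first of these. With 1 probe set per gene, and so fewer probe sets tested, it was 3, 0 and 1 in IkB-DN minus RAG-2-deficient, Artemis- and ATM-deficient minus Artemis-deficient and IkB-DN minus Artemis-deficient lines. In Artemis- and ATM-deficient minus Artemis-deficient lines it was also 0 with the median signal as pseudocount, with the stricter filter (3 samples at the 75th percentile) and with the compared groups alone in the fit. In IkB-DN minus Artemis-deficient lines it was 1 with no filter, 0 without the trend and 4 with the compared groups alone. In marrow it was 2 (Sdf2l1 and Syvn1) with the stricter filter and 1 (Derl3) without the trend. Beyond the numbers tested, the cause was not tested. No called change turned its sign under any of these settings.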
